A study of Mus musculus with 2 samples.

Results

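*Nckap5*, *Gpr179*, *Zc2hc1a* and *Zfp949* are 4 of the 27998 genes counted in single-nucleus RNA-seq of gastrocnemius/plantaris (GP) muscle from control (Ctrl) and *Net39* conditional knockout (cKO) mice. They were chosen by measured values, the higher summed level of each in the cKO library, and found in the count tables by symbol, so the size of that difference between the libraries is given here as a description and supports nothing. *Net39* (*Plpp7* in the count tables) encodes a muscle protein of the nuclear envelope. Ctrl mice were *Net39* fl/fl without a Cre transgene, and cKO mice carried HSA-CreERT2 on *Net39* fl/fl, so that a tamoxifen-activated Cre driven by the human skeletal actin promoter removed the first exon in skeletal muscle fibers. Both groups had the floxed allele, received tamoxifen, were labelled with the strain background B6C3F1 and were taken at 5 months of age, 3 months after tamoxifen. According to the methods, B6C3F1 was the source of the injected zygotes and founders were then bred to C57BL/6N and to the Cre line, so the background was mixed. Each group was 1 library. The protocol in the labels describes pooling of 3 muscles per group, whereas the sample titles name 1 mouse each, so the number of animals behind each is unsettled. Differences between genotypes and differences between libraries therefore cannot be told apart, and no test between the groups was possible. All intervals below are 95% intervals that cover the counting of molecules or nuclei only.

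The 4 genes come from unrelated families. *Nckap5* encodes NCK-associated protein 5, a large protein named for its binding to the adaptor NCK, whose family includes a microtubule-associated relative, *Nckap5l*. *Gpr179* encodes an orphan receptor best known from ON-bipolar cells of the retina, where it anchors RGS proteins that switch off the G protein of the *Grm6* glutamate receptor. *Zc2hc1a* encodes a C2HC-type zinc finger protein whose function is poorly known. *Zfp949* encodes a zinc finger protein of the large group of presumed DNA-binding factors, many of which work through the corepressor *Trim28*. Muscle fibers are syncytia, and their nuclei can be sorted by the myosin heavy chain gene they transcribe, *Myh7* in slow (type I) fibers, and *Myh2*, *Myh1* and *Myh4* in the fast types IIa, IIx and IIb.

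In the GRCm38 annotation, *Nckap5* (ENSMUSG00000049690) lies on the minus strand of chromosome 1 at 125913620 to 126830799, a gene of 917180 bases. *Gpr179* (ENSMUSG00000070337) lies on the minus strand of chromosome 11 at 97332109 to 97352077. *Zc2hc1a* (ENSMUSG00000043542) lies on the plus strand of chromosome 3 at 7503483 to 7553836, and *Zfp949* (ENSMUSG00000032425) on the plus strand of chromosome 9 at 88548020 to 88571061. The promoters of *Nckap5*, at its outer and its inner start, and of *Gpr179* are printed because these 2 genes had the largest ratios between the libraries of the 4. The sequences come from RefSeq (GRCm38.p6), run 5′ to 3′ on the gene's strand from 250 bases before to 50 bases after the RefSeq start, and carry E-boxes (CANNTG, the motif bound by myogenic basic helix-loop-helix factors) in capitals. These RefSeq starts differ from the gene positions given above, and the *Gpr179* window lies wholly upstream of the gene as positioned there.
Nckap5, outer start, chr1:126830583-126830882, minus strand: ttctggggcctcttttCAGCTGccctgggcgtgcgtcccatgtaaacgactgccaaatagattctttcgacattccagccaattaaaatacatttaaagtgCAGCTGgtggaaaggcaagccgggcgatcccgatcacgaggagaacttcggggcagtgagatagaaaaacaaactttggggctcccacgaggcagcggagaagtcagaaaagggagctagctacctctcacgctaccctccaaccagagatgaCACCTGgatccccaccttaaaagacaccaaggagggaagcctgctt
Nckap5, inner start, chr1:126492878-126493177, minus strand: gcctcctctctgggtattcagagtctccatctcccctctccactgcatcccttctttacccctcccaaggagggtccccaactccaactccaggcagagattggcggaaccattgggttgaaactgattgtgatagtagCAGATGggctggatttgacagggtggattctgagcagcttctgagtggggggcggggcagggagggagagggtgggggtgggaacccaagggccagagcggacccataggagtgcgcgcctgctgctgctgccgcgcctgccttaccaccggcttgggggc
Gpr179, chr11:97352307-97352606, minus strand: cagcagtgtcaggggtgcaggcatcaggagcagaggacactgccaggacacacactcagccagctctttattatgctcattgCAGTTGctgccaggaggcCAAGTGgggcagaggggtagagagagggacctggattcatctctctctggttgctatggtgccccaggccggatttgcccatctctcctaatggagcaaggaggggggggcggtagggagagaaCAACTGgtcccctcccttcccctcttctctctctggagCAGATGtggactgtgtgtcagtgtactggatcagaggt

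The outer *Nckap5* window held 3 E-boxes and 1 M-CAT motif (CATTCC), the inner window held 1 E-box, and the *Gpr179* window held 4 E-boxes. The *Zfp949* window (chr9:88547770-88548069, plus strand) held 1 E-box. Both strands were searched. An E-box is present in 72.3% of the 32851 promoters of the same length and an M-CAT motif in 14.7%. Neither an AP-1 motif (TGANTCA, in 7.81% of promoters) nor a CRE (TGACGTCA, in 1.79%) was found in these 4 windows. The base composition also differed, with 52.3% and 61.7% G or C at the outer and inner *Nckap5* starts, 57.7% at *Gpr179* and 43.3% at *Zfp949*, beside a median of 52.7% over all promoters. Promoters of 3 of the 4 genes were matched, and *Zc2hc1a* was not.

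The Ctrl library held 3863 barcodes and 10410316 unique molecular identifiers (UMIs, each counting 1 captured RNA molecule), with a median of 2106 per barcode, and the cKO library 3994 barcodes and 8446070 UMIs, with a median of 1662.5. The libraries had 5 barcodes in common, 4 of them among the nuclei used. After removal of low-quality nuclei and likely doublets, 3526 Ctrl and 3595 cKO nuclei were used. Nuclei were first set apart where they carried markers of fibro-adipogenic progenitors (FAPs, the connective tissue cells of muscle), endothelium or 4 other cell types, and the remaining 2980 Ctrl and 3352 cKO nuclei are called myonuclei. All 5 myonuclear marker genes were detected in them in both libraries, at a summed 68169.5 CPM (UMIs of a gene per 1000000 UMIs of the class) in Ctrl and 62972 CPM in cKO. FAP markers summed to 65.1 and 33.3 CPM and endothelial markers to 33.9 and 27.2 CPM, sums kept low in part by setting apart nuclei with those markers. Smooth muscle and pericyte markers summed to 286 CPM in Ctrl and 284 CPM in cKO myonuclei. Their sums were 198 and 199 CPM in FAP-marker nuclei and 301 and 300 CPM in endothelial-marker nuclei. A myonucleus was assigned to a main myosin where at least 60% of at least 3 UMIs of the 4 myosins came from 1 gene. *Myh7*-main nuclei numbered 19 in Ctrl and 276 in cKO, *Myh2*-main 159 and 321, *Myh1*-main 300 and 383, *Myh4*-main 1886 and 1447, mixed nuclei 115 and 215, and undetermined nuclei, with under 3 myosin UMIs, 501 and 710. The targeted gene, *Plpp7*, was at 50.4 CPM (45.5 to 55.7) in Ctrl and 41.7 CPM (37.0 to 46.9) in cKO myonuclei, but the 3′ reads do not check the loss of a first exon.

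Over all myonuclei, *Nckap5* had 141 UMIs in Ctrl and 4655 in cKO, or 18.6 CPM (15.7 to 22.0) and 689 CPM (669 to 709). *Gpr179* had 7 UMIs in Ctrl and 636 in cKO, or 0.924 CPM (0.372 to 1.90) and 94.1 CPM (86.9 to 102). *Zc2hc1a* had 143 and 966 UMIs, or 18.9 CPM (15.9 to 22.2) and 143 CPM (134 to 152). For each of these 3 genes the cKO interval lay far above the Ctrl interval. The log2 ratios of CPM, cKO over Ctrl, were 6.67 for *Gpr179* (5.62 to 7.99), 5.21 for *Nckap5* (4.97 to 5.46) and 2.92 for *Zc2hc1a* (2.67 to 3.18). A gene was called higher where its CPM was at least 2-fold higher in cKO and it had at least 20 UMIs over both libraries. All 4 genes were called higher in myonuclei, beside 4.18% of the 11425 genes tested, and 0 of 4 were called lower, beside 4.74% of the genes tested, counts fixed by how the genes were chosen. By the size of the log2 ratio *Gpr179* ranked 3, between *Sln* (sarcolipin, a small inhibitor of the calcium pump) and *Dhrs9*, and *Nckap5* ranked 7, between *Gm42722* and *Gm12681*. *Zc2hc1a* ranked 54 and *Zfp949* 145 of 11425.

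*Zfp949* stood apart from the other 3, and the gain in its name is carried by 1 nucleus. It had 422 UMIs in Ctrl (55.7 CPM, 50.5 to 61.3) and 1344 in cKO (199 CPM, 188 to 210), a log2 ratio of 1.84 (1.68 to 2.00). A single cKO *Myh4*-main nucleus held 1044 of the 1344 UMIs, or 77.7%. The next highest cKO myonucleus had 3 UMIs and the highest Ctrl myonucleus 5. With the top nucleus of each library left out, *Zfp949* was at 55.1 CPM in Ctrl and 44.4 CPM (39.5 to 49.7) in cKO, and the log2 ratio became -0.31 (-0.53 to -0.09). The share of myonuclei with at least 1 *Zfp949* UMI was 12.1% in Ctrl and 8.08% in cKO as counted. With every nucleus thinned at random to 500 UMIs, which removes the difference in depth, the shares were 2.99% and 2.24%, a difference of -0.749 percentage points (-1.57 to 0.058). Apart from that nucleus, then, *Zfp949* was not higher in the cKO library.

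The nucleus in question had 4291 UMIs, 1173 detected genes and 0.163% mitochondrial UMIs. *Zfp949* made up 24.3% of its UMIs, ahead of *Malat1*, the abundant nuclear noncoding RNA, with 482 UMIs. It also held 343 UMIs of *Sltm*, which was 15.0% of that gene's UMIs in cKO myonuclei, 102 of *Peak1* and 32 of *Sema3e*, the last being 42.1% of the library's myonuclear *Sema3e*. Its muscle RNA included 46 UMIs of *Ttn* and 32 of *Dmd*. Among the 5395 genes with at least 100 UMIs in cKO myonuclei, *Zfp949* was the only one with more than 50% of its UMIs in 1 nucleus. In Ctrl myonuclei this held for *Kcnip4*, 1 of 5778 genes.

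For the other 3 genes the higher cKO level came from many nuclei. In Ctrl, 112 myonuclei had an *Nckap5* UMI, 89 of them a single one, and the highest had 4. In cKO, 1054 myonuclei had one, 350 had 5 or more, 114 had 10 or more, and the highest had 37. *Gpr179* was found in 7 Ctrl myonuclei with 1 UMI each and in 325 cKO myonuclei, up to 13 UMIs. *Zc2hc1a* was found in 124 Ctrl myonuclei, the highest with 7, and in 396 cKO myonuclei, up to 20. The highest cKO nucleus held 0.795% of the *Nckap5* UMIs, 2.04% of the *Gpr179* UMIs and 2.07% of the *Zc2hc1a* UMIs.

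**Figure D1:**
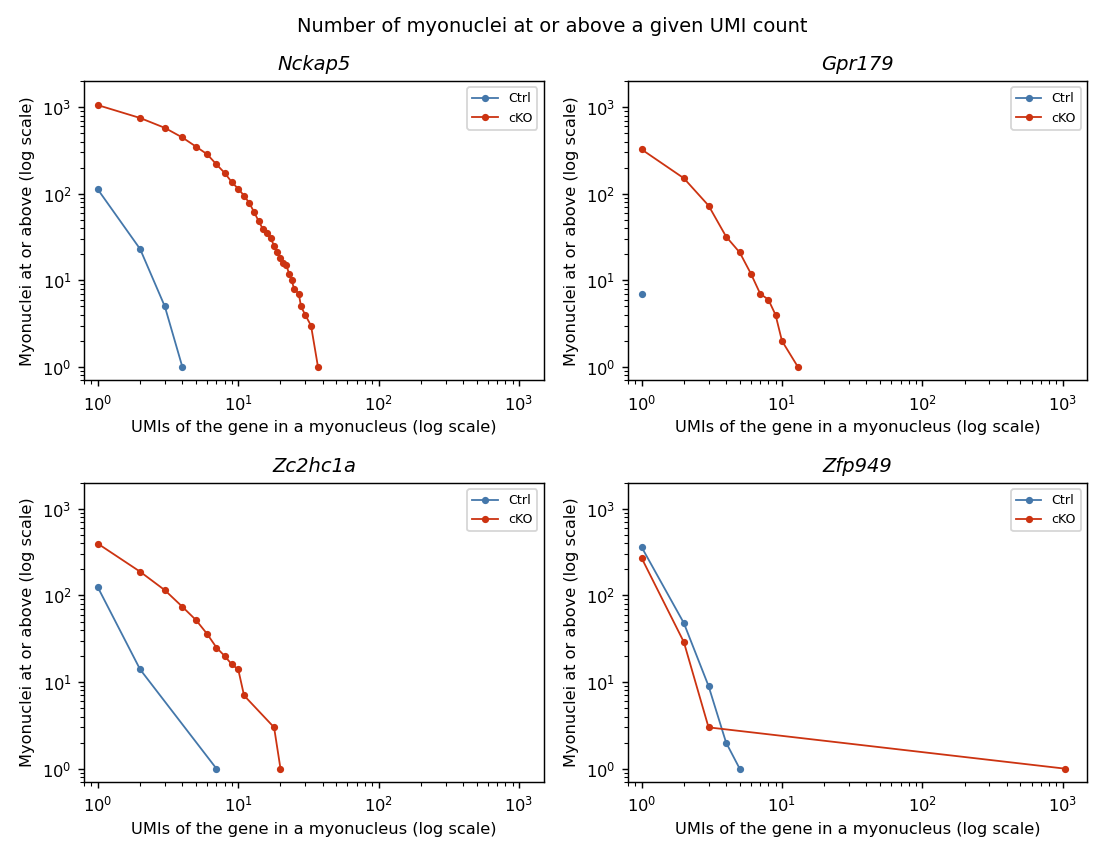
Number of myonuclei (y axis, log scale) with at least the given number of UMIs of the gene (x axis, log scale) in the Ctrl (blue) and cKO (red) libraries, 1 panel per gene. The cKO curves of Nckap5, Gpr179 and Zc2hc1a lie above and to the right of the Ctrl curves, whereas those of Zfp949 lie close together up to 3 UMIs and the cKO curve then runs out to 1 nucleus with 1044 UMIs.

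Thinned to 500 UMIs per nucleus, a depth that every myonucleus used reached, *Nckap5* was detected in 30 of 2980 Ctrl myonuclei (1.01%) and 608 of 3352 cKO myonuclei (18.1%), a difference of 17.1 percentage points (15.8 to 18.5). *Gpr179* was detected in 0 of 2980 Ctrl myonuclei (upper limit 0.124% of nuclei with a UMI at that depth), and in 111 of 3352 cKO myonuclei (3.31%, 2.73 to 3.97). *Zc2hc1a* was detected in 0.906% and 4.27%, a difference of 3.36 points (2.58 to 4.16). Unthinned, the shares were 3.76% and 31.4% for *Nckap5*, 0.235% (7 of 2980) and 9.70% for *Gpr179*, and 4.16% and 11.8% for *Zc2hc1a*. *Nckap5* had the largest difference of the 3 at both depths, while the differences of *Gpr179* and *Zc2hc1a* were close when thinned, 3.31 and 3.36 points, and 9.46 and 7.65 points unthinned.

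*Nckap5* differed strongly between fiber types, and in cKO its level followed the slow end of the series. In Ctrl it was at 178 CPM (71.6 to 367) in *Myh7*-main nuclei on 7 UMIs (105 CPM without the top nucleus), 51.5 CPM (31.4 to 79.5) in *Myh2*-main, 11.6 CPM (5.32 to 22.1) in *Myh1*-main and 10.2 CPM (7.62 to 13.3) in *Myh4*-main nuclei. The Ctrl *Myh7*-main and *Myh2*-main intervals overlapped narrowly, and those of *Myh1*-main and *Myh4*-main nuclei overlapped widely. In cKO it was at 2194 CPM (2077 to 2315) in *Myh7*-main, 953 CPM (881 to 1030) in *Myh2*-main, 440 CPM (397 to 486) in *Myh1*-main and 159 CPM (145 to 174) in *Myh4*-main nuclei. None of these 4 cKO intervals overlapped. Undetermined nuclei stood at 50.7 CPM (36.4 to 68.7) in Ctrl and at 1247 CPM (1180 to 1317) in cKO, and mixed nuclei at 30.8 and 900 CPM (826 to 980), the latter overlapping with *Myh2*-main. The log2 ratio, in contrast with the level, was not ordered along the series, being 3.62 (2.58 to 4.94, or 4.36 without the top nucleus of each library) in *Myh7*-main, 4.21 (3.57 to 4.93) in *Myh2*-main, 5.24 (4.30 to 6.38) in *Myh1*-main and 3.96 (3.55 to 4.40) in *Myh4*-main nuclei. These 4 intervals overlapped, those of *Myh1*-main and *Myh4*-main nuclei only narrowly, and the latter were separate with doublets kept, with 80% needed for a main myosin, with main-myosin nuclei of the marker classes counted as myonuclei and without the top nucleus of each library.

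The thinned shares gave the same order for *Nckap5* in cKO. They were 58.3% (52.3 to 64.2) in *Myh7*-main, 25.9% (21.1 to 31.0) in *Myh2*-main, 9.14% (6.45 to 12.5) in *Myh1*-main and 3.80% (2.88 to 4.92) in *Myh4*-main nuclei, with 27.0% in mixed and 30.4% in undetermined nuclei. In Ctrl they were 1 of 19 nuclei in *Myh7*-main (5.26%), 1.26% in *Myh2*-main, 0 of 300 in *Myh1*-main (upper limit 1.22% at that depth, with 7 of the 300 positive unthinned) and 0.583% in *Myh4*-main nuclei. Within *Myh4*-main nuclei, by far the largest class, the difference was 3.22 percentage points (2.19 to 4.37).

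*Gpr179* was at or near 0 in every class of Ctrl nuclei and present in every class of cKO myonuclei, without the steep order of *Nckap5*. All 7 Ctrl UMIs lay in *Myh4*-main (4) and undetermined (3) nuclei, at 0.768 and 3.71 CPM. In cKO it was at 148 CPM (119 to 183) in mixed, 127 CPM (102 to 157) in *Myh2*-main, 119 CPM (93.3 to 150) in *Myh7*-main, 96.3 CPM (76.9 to 119) in *Myh1*-main, 83.8 CPM (67.2 to 103) in undetermined and 73.5 CPM (64.1 to 84.0) in *Myh4*-main nuclei. Each of these intervals overlapped with that of its neighbor in the order, and mixed, *Myh2*-main and *Myh7*-main nuclei lay above *Myh4*-main nuclei. Set against a floor of 3 counts in each Ctrl class that had none, the cKO level was at least 24.8-fold higher in *Myh1*-main, 17.7-fold in mixed, 16.5-fold in *Myh2*-main and, with only 19 Ctrl nuclei, 1.56-fold in *Myh7*-main nuclei. The exact 95% interval of the log2 ratio, which allows slightly more than 3 counts, began lower, at 4.31, 3.81, 3.71 and 0.31 in the same order. Thinned shares in cKO ran from 2.61% in *Myh1*-main to 6.05% in mixed nuclei.

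*Zc2hc1a* had the same order as *Nckap5* over the 4 main-myosin classes of cKO nuclei, over a narrower range. In Ctrl the classes of myonuclei lay between 17.3 and 28.3 CPM with overlapping intervals. In cKO it was at 292 CPM (260 to 327) in undetermined, 234 CPM (197 to 277) in mixed, 227 CPM (191 to 268) in *Myh7*-main, 176 CPM (146 to 210) in *Myh2*-main, 159 CPM (133 to 187) in *Myh1*-main and 43.2 CPM (36.0 to 51.3) in *Myh4*-main nuclei. Only the *Myh4*-main interval was separate from its neighbor. There the log2 ratio was 1.26 (0.86 to 1.66), against 2.64 (1.74 to 3.68, or 3.96 without the top nucleus of each library) in *Myh2*-main, 2.94 (2.19 to 3.79) in *Myh1*-main, 3.58 (2.50 to 4.92) in mixed and 4.08 (3.31 to 4.97) in undetermined nuclei. In *Myh7*-main nuclei it was 3.16 (0.66 to 8.47) on 1 Ctrl UMI, an interval that overlapped with that of *Myh4*-main nuclei. The thinned share of *Myh4*-main nuclei was 0.901% in Ctrl and 1.38% in cKO, a difference of 0.481 points (-0.279 to 1.31) that counting error alone spans.

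The classes of Ctrl myonuclei had overlapping intervals for *Zfp949*, from 42.6 CPM (29.4 to 59.9) in *Myh1*-main to 76.3 CPM (15.7 to 223) in *Myh7*-main nuclei. In cKO it was at 63.0 CPM in *Myh7*-main, 54.0 CPM in mixed, 44.3 CPM in *Myh2*-main and in undetermined nuclei, and 32.9 CPM in *Myh1*-main nuclei, and each log2 ratio had an interval that included 0. The *Myh4*-main class read 58.0 CPM in Ctrl and 394 CPM in cKO. Without the top nucleus of each library it read 57.1 and 42.2 CPM, a log2 ratio of -0.44 (-0.75 to -0.13).

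By the 2-fold rule, 2 of the 4 genes (*Nckap5* and *Zc2hc1a*) were called higher in *Myh7*-main nuclei, where 9.82% of all genes tested were, and 3 (those and *Gpr179*) in *Myh2*-main nuclei, beside 4.51%, and in *Myh1*-main nuclei, beside 4.2%. In *Myh4*-main nuclei all 4 were called, *Zfp949* through its 1 nucleus, beside 2.99%. The call of *Zc2hc1a* there was lost as well, at log2 ratios of 0.60 when CPM was averaged over single nuclei, 0.84 with 80% needed for a main myosin and 0.57 (-0.28 to 1.46) with myosins assigned on thinned counts. *Gpr179* was not called in *Myh7*-main nuclei because its ratio against the floor of 3 counts was only 1.56.

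**Figure D2:**
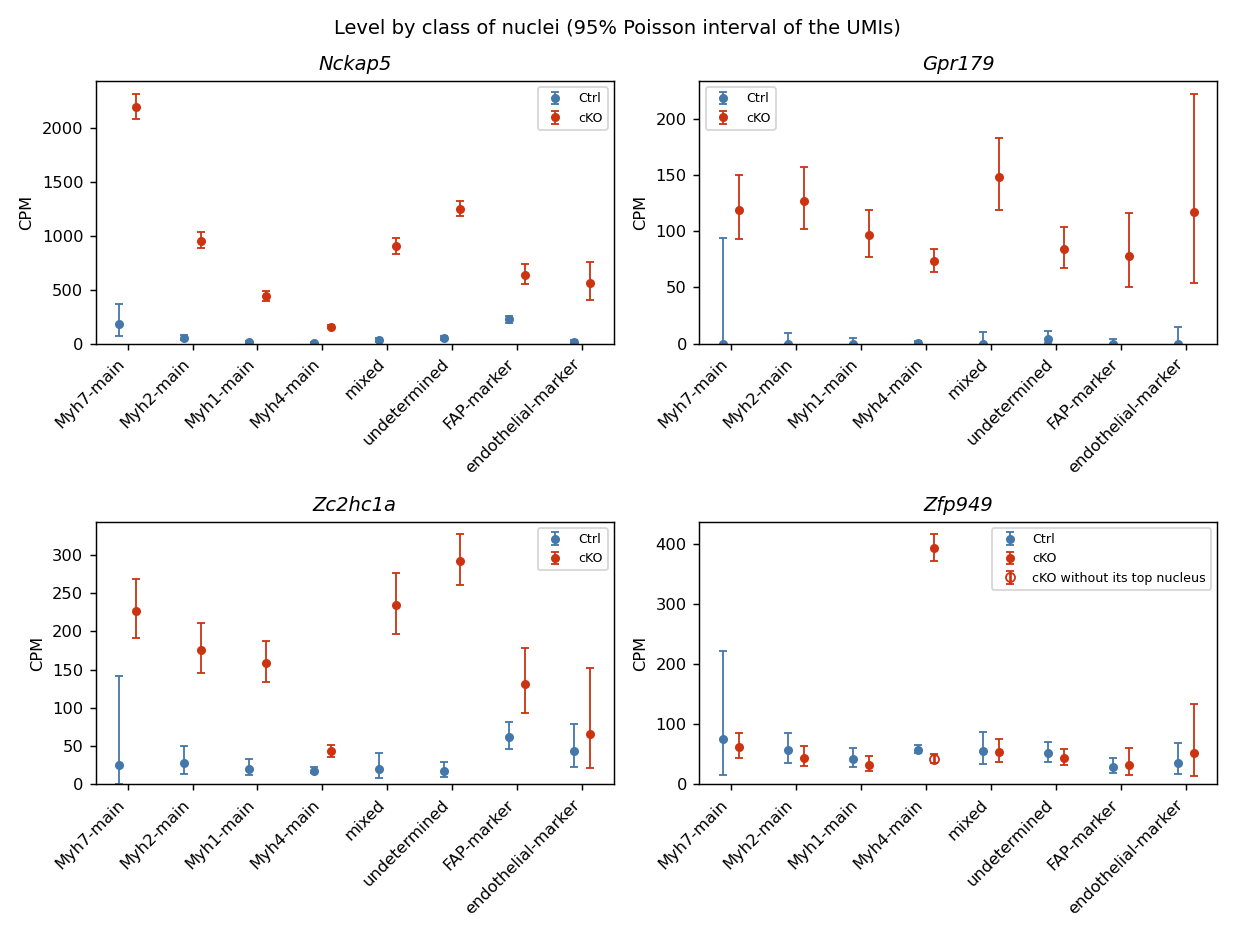
CPM (y axis, linear) of each gene by class of nuclei (x axis) in the Ctrl (blue) and cKO (red) libraries, with exact 95% Poisson intervals of the summed UMIs as bars. Nckap5 in cKO steps down from 2194 CPM in Myh7-main to 159 CPM in Myh4-main nuclei, Gpr179 stays between 73.5 and 148 CPM in the 6 classes of cKO myonuclei, and the open circle shows Zfp949 in cKO Myh4-main nuclei at 42.2 CPM without its top nucleus.

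**Figure D3:**
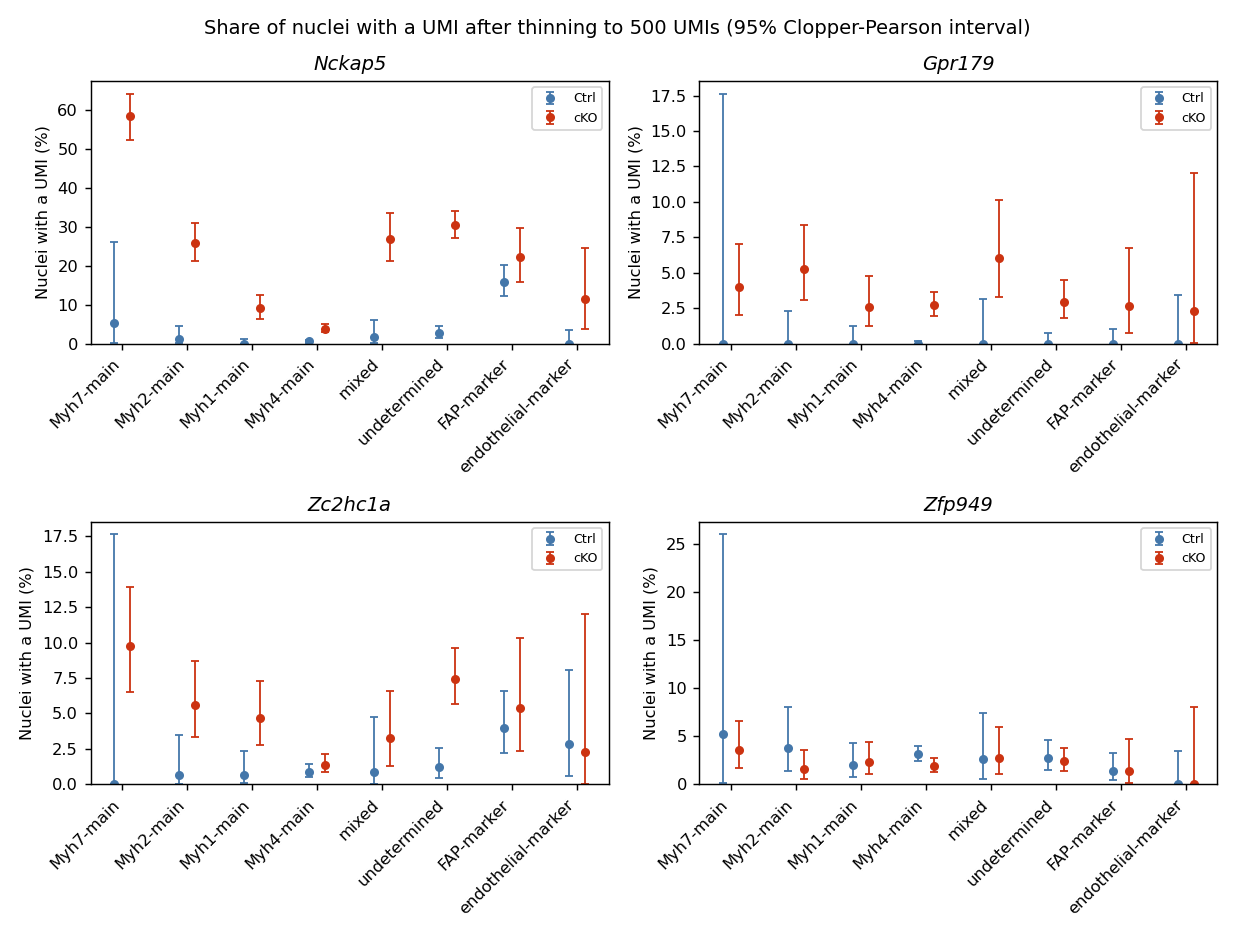
Share of nuclei with at least 1 UMI of each gene (y axis, percent) after thinning each nucleus to 500 UMIs, by class (x axis) in the Ctrl (blue) and cKO (red) libraries, with exact 95% binomial intervals as bars. In cKO the Nckap5 share runs from 58.3% in Myh7-main to 3.80% in Myh4-main nuclei, and the Zfp949 shares of the cKO classes shown are at most 3.62%.

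Because the cKO library held many more slow and fewer *Myh4*-main nuclei, the levels were also recomputed at the other library's class makeup. With Ctrl class levels at the cKO makeup, *Nckap5* would be at 37.5 CPM instead of 18.6, and with cKO class levels at the Ctrl makeup at 390 CPM instead of 689. *Gpr179* would be at 0.906 CPM and 83.5 CPM, and *Zc2hc1a* at 20.1 and 98.3 CPM. The Ctrl class levels rest in part on a *Myh7*-main class of 19 nuclei with 7 UMIs of *Nckap5*, 0 of *Gpr179* and 1 of *Zc2hc1a*. The part of class makeup in the difference between the libraries was not tested. *Zfp949* would be at 56.4 and 284 CPM, the latter because more weight falls on the class with the 1 nucleus.

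Slow fiber genes were strongly higher in cKO myonuclei, with 9 of 9 called higher, beside 4.18% of all genes tested, and a median log2 ratio of 3.28 beside -0.08 over all genes. The CPM of *Myh7* itself was 26.7 in Ctrl but 413 in cKO, and that of *Atp2a2*, the slow fiber calcium pump, 62.4 and 651. Sorted by *Myh7* UMIs, cKO myonuclei with 0 had 466 CPM of *Nckap5* (448 to 485), those with 1 to 2 had 1055 CPM (974 to 1142), those with 3 to 5 had 1998 CPM (1842 to 2164) and those with 6 or more 2043 CPM (1911 to 2181). The 2772 cKO nuclei without a *Myh7* UMI still exceeded the 2927 such Ctrl nuclei, which were at 17.9 CPM (15.0 to 21.2). With a median of 1572 UMIs in these cKO nuclei, having no *Myh7* UMI does not show that a nucleus lacked *Myh7* RNA. Of the 350 cKO myonuclei with 5 or more *Nckap5* UMIs, 177 (50.6%, 45.2 to 55.9) had no *Myh7* UMI, 112 were *Myh7*-main, 101 undetermined, 45 mixed, 40 *Myh2*-main, 26 *Myh1*-main and 26 *Myh4*-main. High *Nckap5* was therefore measured in nuclei of every class.

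*Gpr179* showed no such order, with 95.1 CPM (87.0 to 104) in cKO myonuclei with no *Myh7* UMI, 74.7 and 79.0 CPM in the middle groups and 119 CPM (88.6 to 156) in those with 6 or more, all overlapping. *Zc2hc1a* was at 131 CPM (121 to 141), 165 CPM, 207 CPM and 221 CPM (180 to 270) in the same 4 groups, so that the ends were separate and the neighbors overlapped. The number of UMIs per nucleus also differed between these groups, with medians of 1572 and 2301 at the ends. After thinning, the *Zc2hc1a* share ran from 3.72% to 10.7% and the *Gpr179* share from 3.32% to 3.57%.

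**Figure D4:**
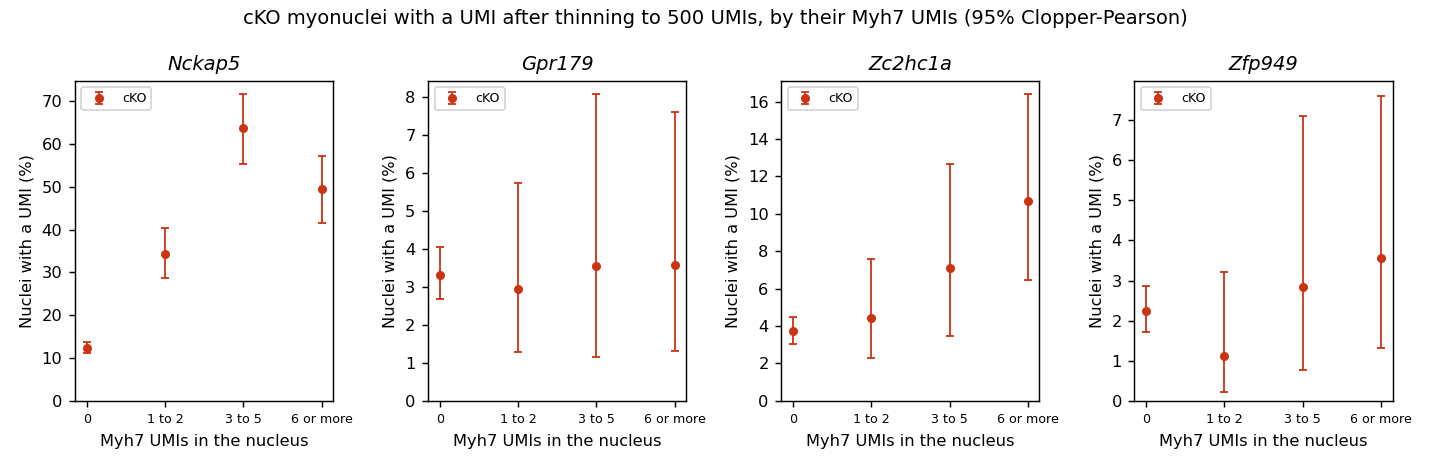
Share of cKO myonuclei with at least 1 UMI of each gene (y axis, percent, after thinning each nucleus to 500 UMIs) against the Myh7 UMIs of the nucleus (x axis, 0, 1 to 2, 3 to 5, and 6 or more), with exact 95% binomial intervals as bars. The Nckap5 share is 12.3% at 0 Myh7 UMIs and 63.8% and 49.4% in the 2 highest groups, the Zc2hc1a share goes from 3.72% to 10.7%, and the Gpr179 share stays between 2.95% and 3.57%.

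Outside the fibers, *Nckap5* was also present in FAP-marker nuclei. In Ctrl, FAP-marker nuclei held 184 of the library's 349 *Nckap5* UMIs (52.7%) and stood at 225 CPM (194 to 260), above every class of Ctrl myonuclei apart from the *Myh7*-main class, whose interval overlapped. The class expressed all 12 FAP markers in both libraries. In cKO, FAP-marker nuclei stood at 637 CPM (551 to 733), a log2 ratio of 1.50 (1.20 to 1.80), but held only 3.96% of the library's 4922 *Nckap5* UMIs, whereas myonuclei held 94.6%. *Zc2hc1a* in FAP-marker nuclei was at 62.4 CPM (46.5 to 82.0) in Ctrl and 131 CPM (93.4 to 178) in cKO, and *Gpr179* was at 0 of 352 Ctrl nuclei and at 78.4 CPM (50.2 to 117) in cKO, on 24 UMIs. *Zfp949* was at 29.4 and 32.7 CPM with overlapping intervals. In these nuclei 3 of the 4 genes were called higher, beside 3.95% of all genes tested. The call of *Zc2hc1a* was narrow, at a log2 ratio of 1.07 (0.43 to 1.69), and was lost at 0.94 without the top nucleus of each library, at 0.52 (-0.35 to 1.36) with main-myosin nuclei of the marker classes counted as myonuclei and at 0.42 when CPM was averaged over single nuclei.

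Muscle RNA was also abundant in these nuclei. *Ttn*, *Neb*, *Dmd*, *Ryr1*, *Ckm* and *Myh4* stood in FAP-marker nuclei at 42.3% to 54.4% of their CPM in myonuclei of the same library, and in endothelial-marker nuclei at 54.5% to 86.3%. In cKO FAP-marker nuclei *Nckap5* was at 92.5%, *Gpr179* at 83.3% and *Zc2hc1a* at 91.5% of its myonuclear CPM, where the interval of *Gpr179* (53.0% to 125%) overlapped with that of *Ckm* (38.5% to 58.6%). In cKO endothelial-marker nuclei *Nckap5* was at 81.4%, within the range of the muscle genes, *Zc2hc1a* at 45.6% (14.8% to 107%, on 5 UMIs) and *Gpr179* at 125% (56.7% to 238%), both with intervals that overlapped with that range. The nuclei were therefore split by whether they held a UMI of the 4 myosins, a split added after the values had been seen.

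In FAP-marker nuclei with no myosin UMI, 152 in Ctrl (median 973.5 UMIs) and 85 in cKO (median 1035 UMIs), *Ttn* in cKO was at 6.76% of its myonuclear CPM. *Nckap5* was at 385 CPM (305 to 481) in Ctrl and 643 CPM (502 to 811) in cKO, a log2 ratio of 0.74 (0.25 to 1.22), and was detected in 30.9% and 42.4% of nuclei. *Gpr179* was detected in 0 of 85 such cKO nuclei, with an upper limit of 33.4 CPM, below the interval of cKO myonuclei. *Zc2hc1a* was at 84.0 and 63.4 CPM, with a log2 ratio of -0.41 (-1.92 to 0.94). In the 200 Ctrl and 64 cKO FAP-marker nuclei with a myosin UMI, *Nckap5* was at 172 and 634 CPM, *Gpr179* at 0 and 123 CPM (24 UMIs in 14 of 64 nuclei) and *Zc2hc1a* at 55.3 and 169 CPM. All FAP-marker UMIs of *Gpr179* thus lay in nuclei that also held myosin RNA. *Nckap5* was present in FAP-marker nuclei without a myosin UMI in both libraries, and the part of free RNA in its higher cKO value was not tested.

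Endothelial-marker nuclei, with all 12 of their markers detected, had 3 *Nckap5* UMIs in 106 Ctrl nuclei (12.04 CPM, 2.48 to 35.2) and 43 in 12 of 44 cKO nuclei (560 CPM, 406 to 755). Without the top nucleus of each library these values were 8.13 and 425 CPM. The 16 cKO nuclei of this class without a myosin UMI held 14 *Nckap5* UMIs in 3 nuclei and 0 of *Gpr179*, but *Ttn* there was still at 34.0% of its myonuclear CPM. All 9 endothelial *Gpr179* UMIs came from the 28 cKO nuclei with a myosin UMI. *Zc2hc1a* was at 44.2 CPM on 11 UMIs in Ctrl and 65.2 CPM on 5 UMIs in cKO, with a log2 ratio of 0.56 (-1.31 to 2.20) that became -0.44 (-3.69 to 1.84) without the top nucleus of each library. Of the 4 genes only *Nckap5* reached 20 UMIs here and it was called higher, beside 4.91% of all genes tested. Smooth muscle and pericyte-marker nuclei, 46 in Ctrl and 23 in cKO, had *Nckap5* at 79.5 and 433 CPM on 14 and 20 UMIs (log2 2.44, 1.39 to 3.54). *Zc2hc1a* was at 28.4 and 151 CPM there, with all 7 cKO UMIs in 1 nucleus, and *Gpr179* at 0 and 64.9 CPM on 3 UMIs. Immune-marker nuclei had 2 *Nckap5* UMIs in 22 Ctrl nuclei and 0 in 16 cKO nuclei, and 6 *Gpr179* UMIs in 3 of the 16 cKO nuclei, 1 of them in a nucleus without a myosin UMI.

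**Figure D5:**
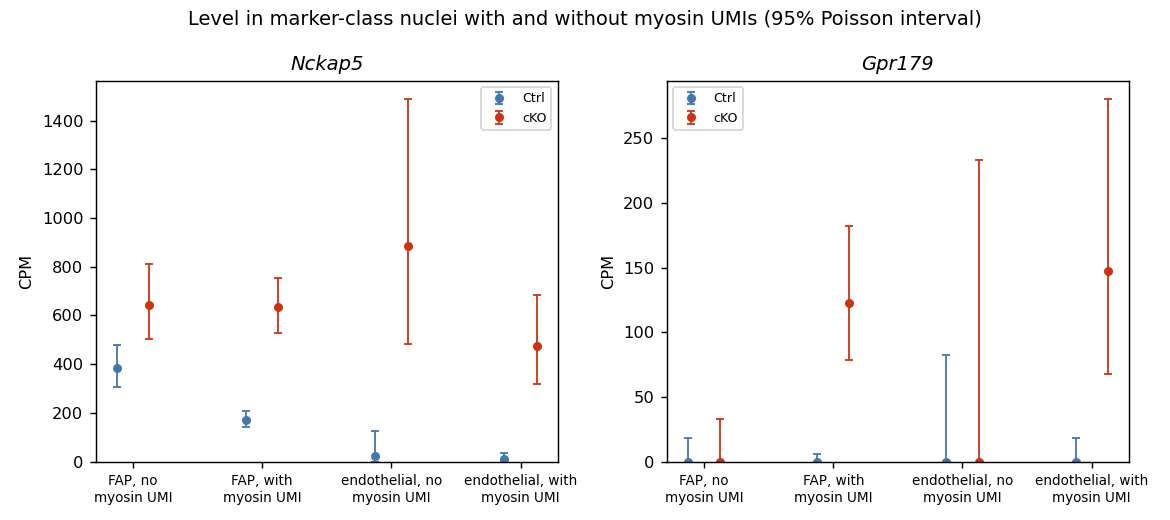
CPM (y axis, linear) of Nckap5 and Gpr179 in FAP-marker and endothelial-marker nuclei with and without UMIs of the 4 myosins (x axis) in the Ctrl (blue) and cKO (red) libraries, with exact 95% Poisson intervals as bars. Nckap5 is present at 385 and 643 CPM in FAP-marker nuclei without myosin UMIs, whereas Gpr179 is at 0 there in both libraries and at 123 CPM in cKO FAP-marker nuclei with myosin UMIs.

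Within the cKO library, the genes were next compared nucleus by nucleus at 500 UMIs. At least 2 of the 4 genes were detected in 3 of 2980 Ctrl myonuclei (0.101%) and in 102 of 3352 cKO myonuclei (3.04%, 2.49 to 3.68). Because the genes were chosen for higher cKO levels, the higher share in cKO follows from that choice and supports nothing. *Nckap5* was detected in 67 of the 143 cKO myonuclei with *Zc2hc1a* (46.9%, 38.5 to 55.4) and in 16.9% of those without. In the same direction, the share was 50% (9 of 18) against 24.4% within *Myh2*-main, 27.8% (5 of 18) against 8.22% within *Myh1*-main, 25% (5 of 20) against 3.50% within *Myh4*-main, 58.5% (31 of 53) against 28.2% within undetermined and 85.7% (6 of 7) against 25% within mixed nuclei. The intervals were separate in the last 3 of these classes and overlapped in *Myh2*-main and *Myh1*-main nuclei. In *Myh7*-main nuclei it was the other way round, 40.7% (11 of 27, 22.4 to 61.2) against 60.2% (53.9 to 66.4), with overlapping intervals. Nuclei with *Zc2hc1a* were also deeper before thinning, with a median of 1882 UMIs against 1613. *Gpr179* showed no such sharing with *Nckap5*, which was detected in 18.0% (20 of 111) of cKO myonuclei with *Gpr179* and 18.1% of those without. In Ctrl, no thinned myonucleus held both *Nckap5* and *Zc2hc1a*, and too few were positive to compare.

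Some other genes, chosen after their values were seen, were compared between nuclei with and without each gene. Among cKO myonuclei with *Nckap5*, *Myh7* was detected in 31.4% against 6.45% of those without, *Tnnt1* (slow troponin T) in 21.7% against 3.83%, *Atp2a2* in 47.4% against 9.99% and *Ncam1*, an adhesion molecule of immature and denervated fibers, in 8.39% against 3.57%. Among those with *Zc2hc1a*, *Myh7* was detected in 18.9% against 10.6%, *Atp2a2* in 33.57% against 16.02% and *Trp63*, a p53-family gene, in 38.5% against 20.4%. Among those with *Gpr179*, *Myh7* was detected in 10.81% against 10.98%, *Atp2a2* in 18.9% against 16.7% and *Trp63* in 16.2% against 21.4%. The stress gene *Atf3* was detected in 2.47% of myonuclei with *Nckap5* and 2.33% of those without. For *Myh7* and *Atp2a2*, the intervals of nuclei with and without the gene were separate for *Nckap5* and *Zc2hc1a* and overlapped for *Gpr179*, in this 1 library.

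Nuclei with markers of the neuromuscular junction, 52 in Ctrl and 57 in cKO, had *Nckap5* at 39.6 and 564 CPM, *Zc2hc1a* at 19.8 and 261 CPM and *Gpr179* at 0 and 52.2 CPM (10 UMIs). The nucleus with 1044 *Zfp949* UMIs was among the 57. Nuclei with markers of the myotendinous junction, 36 and 31, had *Nckap5* at 59.6 and 204 CPM, *Zc2hc1a* at 99.4 and 153 CPM and *Gpr179* at 0 and 25.5 CPM on 2 UMIs. Both cKO values of *Nckap5* lay within the range of the main-myosin classes.

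Genes known to work with the 4, or related to them, were examined in myonuclei, where 4.18% of all genes tested were called higher and 4.74% lower. Of 13 relatives of *Nckap5* and members of the NCK and WAVE actin pathway, 10 were tested, 2 were called higher and 0 lower, with a median log2 ratio of -0.06. The 2 were *Cyfip2*, a WAVE complex subunit, with 86 UMIs (11.4 CPM) in Ctrl and 306 (45.3 CPM) in cKO (log2 2.00, 1.65 to 2.36), and *Nckap5l*, with 9 and 21 UMIs (log2 1.39, 0.20 to 2.70). Of 7 genes for proteins of microtubule ends, 6 were tested and none was called, with a median of -0.20. Of 16 partners and relatives of *Gpr179*, 7 were tested and none was called, with a median of -0.11. The retinal partners *Nyx*, *Lrit3* and *Rgs9bp* had 0 UMIs in myonuclei of both libraries, *Grm6* had 0 and 2, and *Gpr158*, the closest relative of *Gpr179*, was at 6.34 and 6.66 CPM. These retinal genes were thus not detectable, or nearly so, at this depth. Of the relatives of *Zc2hc1a*, *Zc2hc1b* had 0 UMIs and *Zc2hc1c* 2 and 5, so neither was tested. All 6 genes of the corepressor machinery of KRAB zinc finger proteins were tested and none was called, with a median of 0.07.

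Of 10 genes linked to denervation and immature fibers, 7 were tested and 2 were called higher, beside 4.18% of all genes tested, *Myh3* (embryonic myosin, log2 2.90, 1.65 to 4.43) and *Ncam1* (1.13, 0.98 to 1.28). Of 9 damage and stress genes, 8 were tested, with *Atf3* called higher (2.01, 1.75 to 2.29) and *Gadd45a* called lower (-1.28, -2.06 to -0.56), beside 4.18% and 4.74% of all genes. The median log2 ratio was 0.54 over these damage and stress genes and 0.16 over the denervation genes, beside -0.08 over all genes. None of these called genes was as far from Ctrl as *Nckap5* or *Gpr179*, a contrast set by how those genes were chosen.

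Genes near the 4 were examined within 500 kb on either side. Of 15 neighbors of *Nckap5*, 7 were in the table, 3 were tested and none was called, with log2 ratios of -0.30 for *Actr3*, -0.34 for *Slc35f5* and -0.46 for *Mgat5*. Of 55 neighbors of *Gpr179*, 20 were tested, 2 were called higher (*Copz2*, 1.36, and *Gm11592*, 1.66), and those called lower included *Pcgf2* (-1.32). The nearest tested, *Mrpl45*, 2.19 kb away, was at -0.09, and *Socs7*, 10.5 kb away, at 0.21. Near *Zc2hc1a* only *Pkia*, a protein kinase A inhibitor gene 58.1 kb away, was tested, with 1216 UMIs in Ctrl and 1937 in cKO (log2 0.84, not called). In cKO myonuclei thinned to 500 UMIs, *Pkia* was detected in 18.9% of those with *Zc2hc1a* and 11.8% of those without. Near *Zfp949*, 8 genes were tested and none was called, with log2 ratios from -0.60 for the nearest, *9430037G07Rik*, 24.3 kb away (-1.30 to 0.08), and -0.58 for *Mthfsl* (-1.04 to -0.13) to 0.14 for *Nt5e*. *Nckap5* overlaps 3 further annotated genes on the same strand, *Gm37161*, *Gm37936* and *Gm38177*, which were not in the table, so reads from them cannot be told from *Nckap5* reads. The same holds for *Zfp949*, which overlaps *Gm26461* on the same strand.

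The genes whose cKO pattern over 8 classes of nuclei was most like that of each gene, by Pearson's r of log2 CPM, were *Mvd* (0.97), *Apol6* (0.97) and *Ldlrad3* (0.96) for *Nckap5*, *Fam126b* (0.90), *Eif4a2* (0.87) and *Gm5532* (0.86) for *Gpr179*, and *Otud1* (0.96), *Ppp3cc* (0.92) and *5730419F03Rik* (0.91) for *Zc2hc1a*. Among the 4, *Nckap5* and *Zc2hc1a* had r = 0.83, *Nckap5* and *Gpr179* 0.52 and *Gpr179* and *Zc2hc1a* 0.39. In Ctrl, the most similar genes were *Rock2* (0.97) for *Nckap5*, *Plpp3* (0.97) for *Zc2hc1a* and *Krba1* (0.97) for *Zfp949*, and no pattern was formed for *Gpr179*. These correlations describe 8 points from 1 library that share its depth and free RNA. The cKO pattern of *Zfp949*, closest to *Cdh4* (0.97), rests on the 1 nucleus in its *Myh4*-main point.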

How the data were processed

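The deposited counts were whole UMI counts per gene and barcode, made by the authors with Cell Ranger 3.1.0 on the mm10 genome (version and build per the labels). Which annotation release was used, and whether intronic reads counted, is not given in the sources used here, and labels and methods name different kit versions. Each group was 1 library, of 3 pooled muscles per the labelled protocol and 1 mouse per the sample titles. Nuclei with at least 100 genes, at least 500 UMIs and at most 10% mitochondrial UMIs were kept. Scrublet, run in scanpy 1.11.5 with an expected rate of 0.06, called 0 doublets in both libraries, so the 8% with the highest scores were removed (307 Ctrl, 313 cKO), a choice made after that result. A marker class needed 3 UMIs from 2 genes of 1 of 6 lists. CPM came from UMIs summed over a class, with exact Poisson intervals (scipy 1.17.1), log2 ratios had exact binomial intervals, and shares had Clopper-Pearson intervals. A gene with 0 UMIs was set to a floor of 3 counts per class for ratios. Likeness used genes with at least 200 UMIs and log2(CPM + 10), naming the 3 highest per gene. Gene positions came from GENCODE M21, which held 27645 of the 27998 gene identifiers. The calculations were tested on simulated data. The genes, lists and classes were chosen with earlier results of these data known. Named genes were the 4 genes, called list genes, the nearest or called neighbors and the likeness leaders. Other named list members, and the other genes of the *Zfp949* nucleus, were chosen after their values were seen. Some results on neighboring genes are not reported here.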

Additional observations from a re-analysis of the deposited data

How the results depend on the processing

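No paired analysis was possible because each group was 1 library, and for the same reason no replicate could be left out and no value has a spread between replicates. Alternatives are compared with the counting interval of the reported value, and 248 values stayed within it. Among log2 ratios whose interval excluded 0, those that changed sign were for *Zfp949*. Its log2 ratio (cKO over Ctrl) became -0.31 over all myonuclei and -0.44 in *Myh4*-main nuclei without each library's top nucleus, and -1.04 in *Myh4*-main nuclei when the myosins were assigned on counts thinned to 500 UMIs, where undetermined nuclei read 2.37. Ratios whose interval included 0 also changed sign, for *Zfp949* in *Myh7*-main, *Myh1*-main, mixed, undetermined, FAP-marker and endothelial-marker nuclei and for *Zc2hc1a* in endothelial-marker nuclei. Taken as the mean of each nucleus's own CPM, log2 ratios were 4.64 for *Nckap5*, 2.62 for *Zc2hc1a* and 1.09 for *Zfp949* over all myonuclei, 3.40, 4.03 and 1.02 for *Nckap5* in *Myh4*-main, undetermined and FAP-marker nuclei, 0.60 and 0.42 for *Zc2hc1a* in *Myh4*-main and FAP-marker nuclei, and 1.85 for *Zfp949* in *Myh4*-main nuclei. With marker-class nuclei that had a main myosin counted as myonuclei, *Nckap5* was at 4.77 over all myonuclei, 3.14 in *Myh4*-main and 1.08 in FAP-marker nuclei. With 80% needed for a main myosin, *Nckap5* was at 6.39 in *Myh1*-main, *Zc2hc1a* at 4.83 in *Myh2*-main and 0.84 in *Myh4*-main, and *Zfp949* at -1.39 in *Myh2*-main nuclei. With myosins assigned on thinned counts, *Nckap5* was at 6.44 in *Myh1*-main and 5.29 in undetermined, *Gpr179* at 6.86 in undetermined, and *Zc2hc1a* at 0.57 in *Myh4*-main, 2.47 in mixed and 3.16 in undetermined nuclei. With likely doublets kept, *Nckap5* in FAP-marker nuclei was at 1.89 and *Zfp949* in *Myh4*-main nuclei at 2.57. With at least 1000 UMIs per nucleus, *Nckap5* in undetermined nuclei was at 5.23, and without the top nucleus *Zc2hc1a* in *Myh2*-main nuclei was at 3.96.

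Shares moved with depth. Thinned to 1000 UMIs, which leaves out 92 Ctrl and 477 cKO myonuclei, the cKO minus Ctrl difference was 25.2 percentage points for *Nckap5*, 6.68 for *Gpr179*, 6.23 for *Zc2hc1a* and -1.23 for *Zfp949* (-2.37 to -0.09, which excludes 0 as the interval at 500 UMIs does not). Unthinned, it was 27.7, 9.46 and 7.65 points, and -4.06 for *Zfp949*. Myonuclei with at least 2 of the genes made up 8.07% of cKO at 1000 UMIs, and 1.28% of Ctrl and 14.4% of cKO unthinned. Among cKO myonuclei with *Nckap5*, at 1000 UMIs and unthinned, *Gpr179* was detected in 6.38% and 11.01%, *Zc2hc1a* in 20.4% and 29.0% and *Zfp949* in 4.82% and 11.01%. Among those with *Zc2hc1a*, *Nckap5* was detected in 69.8% and 77.3%, and, unthinned, *Gpr179* in 9.85% and *Zfp949* in 12.6%. Unthinned, *Nckap5*, *Zc2hc1a* and *Zfp949* were detected in 35.7%, 12% and 10.2% of those with *Gpr179*, and *Nckap5*, *Gpr179* and *Zc2hc1a* in 42.8%, 12.2% and 18.5% of those with *Zfp949*. The number of genes called higher or lower in myonuclei was 1018, 571 with at least 50 UMIs and 2517 at 1.5-fold. The cause of these differences was not tested. Leaving out the top nucleus was added after seeing the data.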

Other observations

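The nuclei removed by doublet score carried the same 4 genes. Among 307 removed Ctrl and 313 removed cKO nuclei, *Nckap5* was detected in 52 and 169, with up to 6 and 29 UMIs in a nucleus, *Gpr179* in 2 and 51, *Zc2hc1a* in 26 and 48 and *Zfp949* in 62 and 45. The highest *Zfp949* count among the removed cKO nuclei was 8 UMIs.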
